A study of Rattus norvegicus with 6 samples.

Results

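The transcripts described here are the messenger RNAs for the 7 subunits of respiratory complex I that the rat mitochondrial genome encodes: Mt-nd1, Mt-nd2, Mt-nd3, Mt-nd4l, Mt-nd4, Mt-nd5 and Mt-nd6. They were picked out by a fixed list of Ensembl gene IDs, a rule that uses no measured value, although the list was drawn up with earlier results of these data known. All 7 IDs were found among the 32883 genes of the count table. All 7 also passed the filter on low counts that left 13823 genes for testing, and none was absent or too low. The deposited table lists genes by ID only. The symbol of each of the 7 IDs came with the choice of genes and could not be checked against the gene table used here, which holds no Ensembl ID.

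The study asked which RNAs come down with MBNL1 (muscleblind-like 1), an RNA-binding protein that regulates splicing, localisation and stability of transcripts, in heart muscle cells. Ventricular cardiomyocytes from rats of postnatal days 1 to 2 were depleted of non-myocytes by pre-plating and transduced, when plated, with an adenovirus for FLAG-tagged MBNL1 at a multiplicity of infection of 100 for 48 h. Debris and nuclear membranes were spun out of the lysate, 10% of it was kept as Input, and the rest was immunoprecipitated with anti-FLAG (RIP) or control IgG antibody. There were 3 RIP and 3 Input libraries, all of total RNA from transduced cells of a strain the labels do not name. Both groups thus carry the overexpressed tagged protein and come after the clearing spin. No IgG-control and no untransduced library was analysed here, and RNA that beads or antibody hold without MBNL1 thus has no measure in these values. The marker genes of cardiomyocytes and other heart cells could not be looked up, because IDs and symbols could not be paired.

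Complex I takes electrons from NADH, passes them to ubiquinone and pumps protons across the inner mitochondrial membrane, and the heart depends heavily on it for ATP. Its subunits made in the mitochondrion form the core of the membrane arm, and the many others are encoded in the nucleus and imported. The mitochondrial genome is transcribed inside the organelle as long precursors from both strands, from which single messengers are cut. Mt-nd6 is the only protein-coding gene read from the light strand, while the other 6 members are read from the heavy strand. Mt-nd4l and Mt-nd4 share a messenger and their reading frames overlap. Neither the strand setting of the counting nor its treatment of multiply mapping or overlapping reads is given in the sources used here. Reads of Mt-nd6 and of precursor RNA from the opposite strand, reads of Mt-nd4l and Mt-nd4 where they overlap, and reads shared with nuclear copies of mitochondrial DNA can therefore not be told apart in these counts.

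Library totals were 17265349 to 18145453 counts in RIP and 19150577 to 19325661 in Input. Levels are given in CPM, the counts scaled to a fixed library total after correction by TMM factors of 0.888 to 1.102, and are not corrected for transcript length, for which no source was given. Levels are therefore compared between libraries for each transcript, not between transcripts. Nothing in the labels states that the 3 libraries of a group are separate cultures, and p-values measure the spread between these libraries only.

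All 7 transcripts were lower in RIP than in Input, by 3.62-fold to 70.9-fold, and the size of the change differed widely among them. Mt-nd1 and Mt-nd3 were lowest relative to Input, Mt-nd6, Mt-nd2 and Mt-nd5 were 17.6-fold to 21.8-fold lower, and Mt-nd4l and Mt-nd4 were only 3.78-fold and 3.62-fold lower. Each passed the test across all genes (quasi-likelihood test of edgeR, p of 1.21e-08 or less after Benjamini-Hochberg adjustment, n = 3 libraries per group). By the same rule 34.9% of all tested genes were lower in RIP and 33% were higher, so a call alone does not set these transcripts apart. That split depends on the scaling: 4824 genes were lower and 4563 higher with TMM factors, 5588 and 3459 with library sizes only, and 5262 and 4098 with upper-quartile factors. By size, 5 of the 7 were at least 16-fold lower, against 0.217% of the tested genes. The same 5 were the members at least 8-fold lower (0.658% of tested genes) and at least 4-fold lower (3.1%). Such changes were common among the 20 genes with the highest Input CPM, but much rarer below them. Of the 10 highest, 7 were at least 8-fold lower in RIP, and Mt-nd1, Mt-nd2 and Mt-nd5 were 3 of these 7. Of the 20 highest, 10 were at least 8-fold lower, and Mt-nd6 with those 3 made up 4 of these 10. The count was 11 of the 50 highest, 11 of the 100 highest and 15 of the 200 highest. What the other genes among these are could not be looked up, because IDs and symbols could not be paired. The median log2 fold change of the 7 was -4.42, beside -0.03 over all tested genes, a value that also depends on the scaling.

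**Figure D1:**
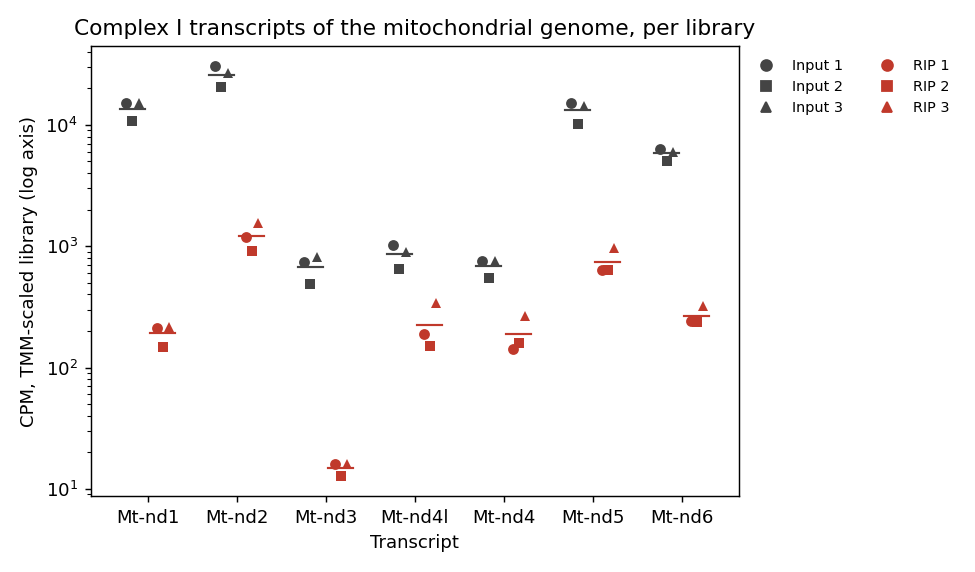
CPM of the TMM-scaled library (log axis) for each complex I transcript of the mitochondrial genome in the 3 Input (grey) and 3 RIP (red) libraries; symbols mark the replicate number and horizontal lines the group mean. Every RIP point lies below every Input point of its transcript, and the gap is narrowest for Mt-nd4l and Mt-nd4. Levels are not corrected for length, so heights of different transcripts are not comparable.

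Together the 7 transcripts took 6.37% ± 0.92 (SD, n = 3) of all Input counts but 0.272% ± 0.083 (SD, n = 3) of all RIP counts, a 23.4-fold lower share. Input replicate 1 gave 7.05% (95% Wilson interval 7.04% to 7.06%), Input replicate 2 gave 5.32% (5.31% to 5.33%) and Input replicate 3 gave 6.73% (6.72% to 6.74%). RIP replicate 1 gave 0.233% (0.231% to 0.235%), RIP replicate 2 gave 0.216% (0.214% to 0.219%) and RIP replicate 3 gave 0.367% (0.365% to 0.37%). These intervals cover counting error only. They treat reads as independent and may be too narrow even for that, since reads without molecular identifiers are not independent molecules. The groups were far apart (two-sided exact permutation test, p = 0.1, the smallest that 3 against 3 libraries allow), while RIP replicate 3 stood above the other RIP libraries and Input replicate 2 below the other Inputs. Without Mt-nd2, which held the most counts of the 7, the shares were 3.65% ± 0.52 and 0.156% ± 0.048 (SD, n = 3 each), a ratio of 23.3.

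Mt-nd1 (ENSRNOG00000030644) encodes the subunit that lines the ubiquinone-binding chamber at the foot of the membrane arm. Its level in Input replicates 1, 2 and 3 was 15109, 10713 and 15037 CPM, and in RIP replicates 1, 2 and 3 it was 214, 148 and 214 CPM. The lowest Input value was 50-fold above the highest RIP value. Its level was 70.9-fold lower in RIP, with a 95% interval of 55.8-fold to 90-fold (log2 fold change -6.15 ± 0.17 SE, adjusted p = 9.51e-18 in edgeR). Among all tested genes, Mt-nd1 had rank 2 when ordered from the lowest fold change up.

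Mt-nd3 (ENSRNOG00000033615) encodes a small subunit whose loop lies at the joint between the membrane arm and the arm that reaches into the matrix. It was measured at 734, 484 and 810 CPM in Input replicates 1, 2 and 3, and at 16, 12.8 and 16.1 CPM in RIP replicates 1, 2 and 3. The groups did not overlap, and the 3 RIP values lay closer together (coefficient of variation 12.4%) than the 3 Input values (25.2%). It was 45.1-fold lower in RIP (log2 fold change -5.49 ± 0.16 SE, adjusted p = 2.19e-17 in edgeR), rank 5 among all tested genes. Mt-nd3 had the fewest counts of the 7 in RIP, 213 to 292 per library. Counting alone, with reads taken as independent, gives an error of 6.85% in the lowest library.

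Mt-nd6 (ENSRNOG00000029042) encodes a membrane-arm subunit next to those of Mt-nd3 and Mt-nd4l. Input replicates 1, 2 and 3 held 6374, 5069 and 5986 CPM of it, and RIP replicates 1, 2 and 3 held 244, 237 and 320 CPM. All RIP values were far below all Input values, with RIP replicates 1 and 2 nearly level and RIP replicate 3 above them. This 21.8-fold lower level (log2 fold change -4.44 ± 0.13 SE, adjusted p = 1.96e-17 in edgeR) had rank 20 among tested genes.

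Mt-nd2 and Mt-nd5 encode antiporter-like subunits, which carry the proton channels of the membrane arm. Mt-nd2 (ENSRNOG00000031033) was at 30275, 20626 and 26817 CPM in Input replicates 1, 2 and 3, and at 1180, 906 and 1555 CPM in RIP replicates 1, 2 and 3. It was 21.3-fold lower in RIP (log2 fold change -4.42 ± 0.17 SE, adjusted p = 2.46e-15 in edgeR), rank 22 among tested genes. The groups were separated, and the RIP values varied more (coefficient of variation 26.8%) than the Input values (18.9%). Mt-nd5 (ENSRNOG00000029971) was at 14994, 10200 and 14167 CPM in Input replicates 1, 2 and 3, and at 637, 639 and 960 CPM in RIP replicates 1, 2 and 3. It was 17.6-fold lower (log2 fold change -4.14 ± 0.16 SE, adjusted p = 2.45e-15 in edgeR), rank 27. The groups of Mt-nd5 did not overlap either, with RIP replicate 3 above the other RIP libraries.

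Mt-nd4, which encodes a further antiporter-like subunit, and Mt-nd4l, which encodes a small subunit of the membrane arm, kept far more of their counted Input level. Both had far fewer Input counts than Mt-nd2: 11668 to 15257 for Mt-nd4 and 13888 to 19874 for Mt-nd4l, against 439376 to 590168. This may depend on how multiply mapping or overlapping reads were counted. Whether the counts cover all reads of Mt-nd4 and Mt-nd4l was not tested. Mt-nd4 (ENSRNOG00000029707) was at 761, 548 and 760 CPM in Input replicates 1, 2 and 3, and at 142, 160 and 268 CPM in RIP replicates 1, 2 and 3. The lowest Input value was 2.04-fold above the highest RIP value, which was that of replicate 3. It was 3.62-fold lower in RIP, with a 95% interval of 2.87-fold to 4.57-fold (log2 fold change -1.86 ± 0.16 SE, adjusted p = 1.09e-09 in edgeR), and had rank 533 among tested genes.

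Mt-nd4l (ENSRNOG00000031053) was at 1019, 652 and 898 CPM in Input replicates 1, 2 and 3, and at 190, 149 and 339 CPM in RIP replicates 1, 2 and 3. The gap between groups was 1.92-fold, the narrowest of the 7, and RIP replicate 3 was well above the other RIP libraries (coefficient of variation 44.3%). The level was 3.78-fold lower in RIP, with a 95% interval of 2.86-fold to 5.01-fold (log2 fold change -1.92 ± 0.19 SE, adjusted p = 1.21e-08 in edgeR), rank 485. Mt-nd4l and Mt-nd4 together took 0.162% ± 0.026 (SD, n = 3) of all Input counts, against 0.04% ± 0.018 (SD, n = 3) of all RIP counts.

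**Figure D2:**
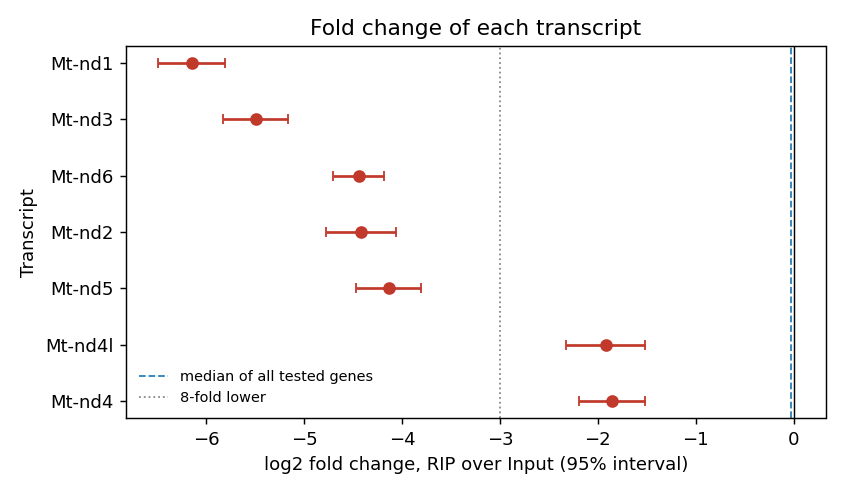
Log2 fold change of RIP over Input for each transcript (points) with its 95% interval (bars) from the edgeR fit of 3 RIP and 3 Input libraries. The dashed line is the median of all tested genes (-0.03) and the dotted line marks 8-fold lower; the intervals of Mt-nd4l and Mt-nd4 lie to its right and those of the other 5 to its left.

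For every one of the 7 transcripts, all RIP values lay below all Input values, which was the case for 36.8% of all tested genes. A test against an 8-fold limit (edgeR's glmTreat) was passed by Mt-nd1, Mt-nd2, Mt-nd3, Mt-nd5 and Mt-nd6, with adjusted p of 4.09e-06 or less. Mt-nd4l and Mt-nd4 did not pass it (adjusted p = 1 for both), and passed the test against a 2-fold limit with adjusted p of 0.00011 and 3.09e-05. Of all 13823 tested genes, 26 passed the 8-fold limit as lower in RIP and 0 as higher. The 2-fold limit was passed by 1150 as lower and 634 as higher. With library sizes in place of TMM factors, the median of all genes moved to -0.18 and the fold changes of the 7 to between -6.29 and -1.98 on the log2 scale. Of the 13823 tested genes, 30 were at least 16-fold lower in RIP, and Mt-nd1, Mt-nd2, Mt-nd3, Mt-nd5 and Mt-nd6 were 5 of these 30.

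**Figure D3:**
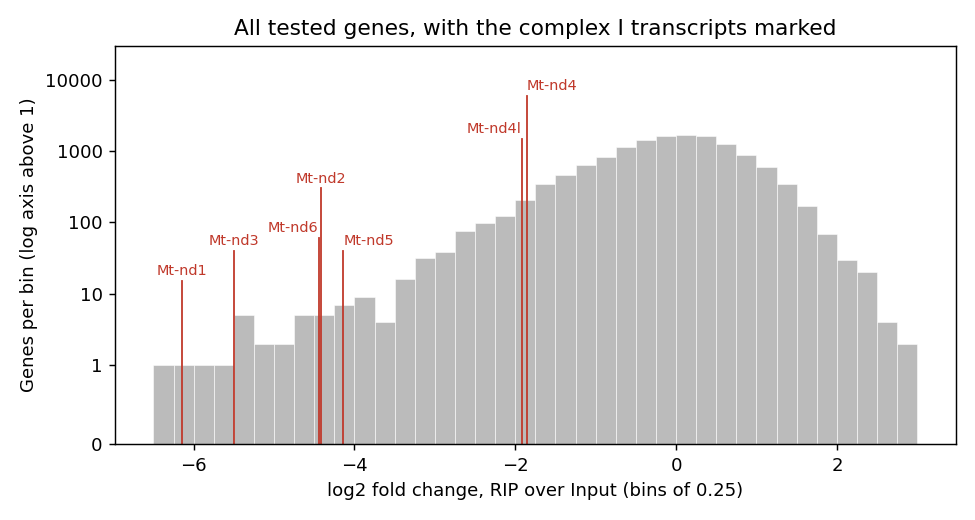
Number of tested genes per bin of 0.25 in the log2 fold change of RIP over Input (grey bars, log axis above 1), with the 7 transcripts marked by red lines whose heights only separate the labels. Mt-nd1, Mt-nd3, Mt-nd6, Mt-nd2 and Mt-nd5 lie in the sparse left tail, and Mt-nd4l and Mt-nd4 at the edge of the main body of genes.

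Ratios between the 7 transcripts within a library do not depend on how the libraries are scaled, and they changed between lysate and pulldown. Each transcript was set against the sum of the other 6 in the same library. Mt-nd4 was 6.11-fold and Mt-nd4l 5.8-fold higher relative to the other 6 in RIP than in Input, with log2 ratios of -3.83 ± 0.25 in RIP against -6.44 ± 0.05 in Input for Mt-nd4 and -3.6 ± 0.27 against -6.13 ± 0.06 for Mt-nd4l (SD, n = 3 each). Mt-nd5 was 1.29-fold higher by this measure, with -1.49 ± 0.15 in RIP and -1.86 ± 0.04 in Input (SD, n = 3 each). Mt-nd1 went the other way and was 3.97-fold lower relative to the other 6, and Mt-nd3 was 2.07-fold lower. For these 5 transcripts the groups did not overlap (two-sided exact permutation test, p = 0.1 each, the smallest possible, and 0.14 after Benjamini-Hochberg adjustment over the 7). The 7 ratios are not independent, since each transcript is part of the sum that the others are set against. How often such ratios separate the groups among other genes was not counted. For Mt-nd2 and Mt-nd6 the RIP and Input ratios overlapped, with differences of -0.01 and -0.03 on the log2 scale (exact permutation p = 0.9 and 1, both 1 after adjustment).

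**Figure D4:**
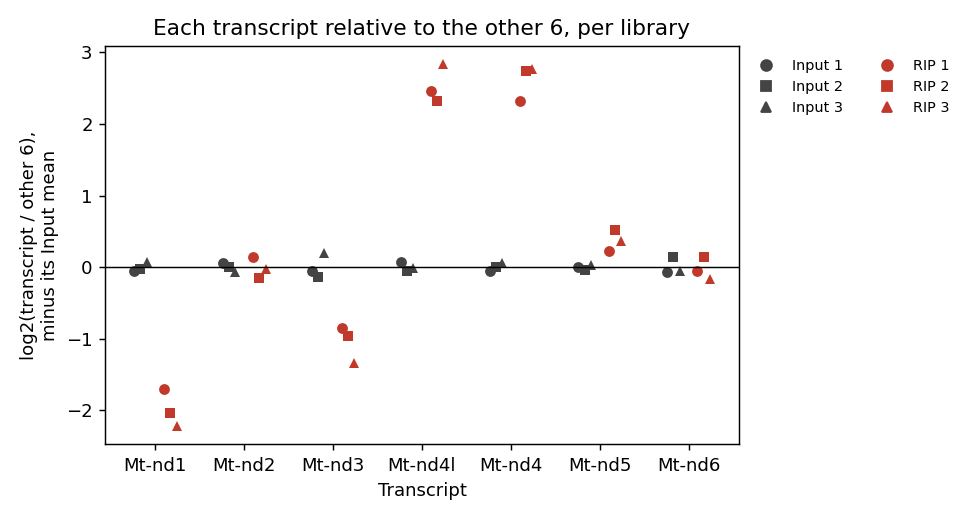
Log2 of the counts of each transcript over the summed counts of the other 6 in the same library, minus the mean of that value over the 3 Input libraries, for Input (grey) and RIP (red) libraries; symbols mark the replicate number. The RIP points of Mt-nd4l, Mt-nd4 and Mt-nd5 lie above all their Input points, and those of Mt-nd1 and Mt-nd3 below. Those of Mt-nd2 and Mt-nd6 spread to both sides of their Input points.

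As shares of the counts of all 7, Mt-nd1 made up 22.4% ± 0.8 in Input but only 6.85% ± 1.18 in RIP (SD, n = 3 each). The share of Mt-nd4l went from 1.4% ± 0.06 to 7.7% ± 1.37 and that of Mt-nd4 from 1.14% ± 0.04 to 6.61% ± 1.03 (SD, n = 3 each). Mt-nd2 held 42.7% ± 1.1 in Input against 42.5% ± 2.4 in RIP (SD, n = 3 each), the highest share in both groups. In Input, Mt-nd4l and Mt-nd4 thus held little of the counts, and in RIP each held about as much as Mt-nd1. Shares of counts depend on transcript length as well as on abundance. The annotated length is the same in both groups, but the length of the RNA present in each was not measured. They also depend on how multiply mapping or overlapping reads were counted, which is not given.

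The 7 were ordered by fold change in these same libraries, from Mt-nd1 through Mt-nd3, Mt-nd6, Mt-nd2, Mt-nd5 and Mt-nd4l to Mt-nd4. The sign of each step was thus set by the ordering, and the steps do not test the order. For most neighbours the ratios did not overlap between RIP and Input. The log2 ratio of Mt-nd1 to Mt-nd3 differed between RIP and Input by -0.68 and that of Mt-nd3 to Mt-nd6 by -1.02, both with no overlap between the groups. Between Mt-nd2 and Mt-nd5 the difference was -0.29, also with no overlap. The widest step, -2.16 between Mt-nd5 and Mt-nd4l, had RIP ratios of 1.5 to 2.1 and Input ratios of 3.88 to 3.98 on the log2 scale. The pairs Mt-nd6 with Mt-nd2 and Mt-nd4l with Mt-nd4 were the exceptions. Their ratios differed between RIP and Input by -0.02 and -0.09 on the log2 scale and overlapped between the groups (exact permutation p = 0.8 for both). Of all 21 pairs of the 7 transcripts, 19 had ratios that did not overlap between RIP and Input, and these 2 pairs had ratios that did (over the 21 pairs the smallest adjusted p is 0.11). The 21 ratios are built from the same 7 counts per library, so the pairs are not independent and a shift of 1 transcript moves all its pairs. Pairs of other genes were not counted, so how common this is among all genes is not known. Of single tested genes, 36.8% had every RIP library below every Input library.

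The counts of Mt-nd4l per count of Mt-nd4, which share a messenger, were 1.34, 1.19 and 1.18 in Input replicates 1, 2 and 3 and 1.33, 0.929 and 1.27 in RIP replicates 1, 2 and 3. The groups overlapped, with the lowest value of all in RIP replicate 2.

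The ratio of the light-strand transcript to the sum of the heavy-strand ones overlapped between RIP and Input. Per 100 counts of the 6 heavy-strand transcripts there were 10.1, 11.7 and 10.2 counts of Mt-nd6 in Input replicates 1, 2 and 3. In RIP replicates 1, 2 and 3 there were 10.2, 11.8 and 9.54. The log2 ratio was -3.25 ± 0.15 in RIP and -3.23 ± 0.12 in Input (SD, n = 3 each; two-sided exact permutation test, p = 1), with the highest value of both groups in replicate 2. This sum is weighted toward Mt-nd2, Mt-nd5 and Mt-nd1, which hold most of the heavy-strand counts, and it hides members that moved in opposite directions. Against Mt-nd5 alone, its neighbour on the other strand, the log2 ratio of Mt-nd6 differed between RIP and Input by -0.30, with no overlap (RIP -1.59 to -1.39, Input -1.24 to -1.01; exact permutation p = 0.1). Against Mt-nd4l and Mt-nd4 summed, a comparison chosen after their values were seen, the difference was -2.51.

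Libraries of a group differed in all 7 transcripts in a similar way. Input replicate 2 had the lowest Input level for 7 of the 7, and RIP replicate 3 the highest RIP level for 7 of the 7. How many of all tested genes share this order was not counted, so it may not be particular to the 7. The lowest RIP level was that of replicate 2 for 5 transcripts and of replicate 1 for Mt-nd4 and Mt-nd5. The spread between libraries, as the coefficient of variation, was 11.5% for Mt-nd6 to 25.2% for Mt-nd3 in Input. In RIP it was 12.4% for Mt-nd3 to 44.3% for Mt-nd4l, with Mt-nd4 next at 35.7%. Counting error, with reads taken as independent, was smaller than this spread. It was 0.816% for Mt-nd2 to 6.85% for Mt-nd3 in the RIP library with the lowest count.

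Among 9744 other genes with a mean of at least 5 CPM over the 6 libraries, the smallest root mean square distance from the median pattern of the 7 was that of ENSRNOG00000029145, at 0.26 on the log2(CPM + 1) scale after centring each gene. It was at 35.5 ± 10.7 CPM in Input and 1.05 ± 0.13 CPM in RIP (SD, n = 3 each). This gene passed the CPM limit through Input alone, and at its RIP level the added 1 shrinks the change. With 0.1 in place of 1, a constant chosen after seeing the data, its distance was 0.379 and its rank was 8. The nearest gene was then ENSRNOG00000029768, at a distance of 0.225. ENSRNOG00000030478 had rank 2 and a distance of 0.281 under either constant. Its level was 10637 ± 534 CPM in Input and 450 ± 58.3 CPM in RIP (SD, n = 3 each). For comparison, the distance of a member itself from this median pattern was 0.0786 for Mt-nd6, 0.102 for Mt-nd2 and 0.112 for Mt-nd5, but 0.547 for Mt-nd3, 0.915 for Mt-nd1, 1.19 for Mt-nd4l and 1.23 for Mt-nd4. With 6 libraries in 2 groups, this measure mostly follows the size of the fold change.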

How the data were processed

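The authors deposited raw read counts per Ensembl rat gene for the 6 libraries, with no normalization. STAR, featureCounts and DESeq2 are named in the submitters' processing notes, without versions, and genome build, annotation and strand setting are not given there. The members and lists were chosen with earlier results of these data known.

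Genes were filtered with filterByExpr (minimum count 10, minimum total 15). The quasi-likelihood F test of edgeR 4.0.16 (R 4.3.3) with TMM factors compared both groups over all 6 libraries with no covariate, with Benjamini-Hochberg adjustment over all 13823 genes (threshold 0.05). Standard errors (SE) are the absolute log2 fold change divided by the root of F. The test was checked on simulated data in which few genes changed, as many up as down. That check does not cover the scaling or the error rate where a large share of genes change, as in these data. Single values were compared by two-sided exact permutation tests. Alternatives were DESeq2 1.42.0, limma-voom (limma 3.58.1), other scalings and filters, thinning to 17265349 counts, leaving out libraries and a replicate block. Chosen after seeing the data were the pairs of members, the ratio of Mt-nd6 to Mt-nd4l plus Mt-nd4, the sum without Mt-nd2, and leaving the gene with most counts out of the scaling.

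All 7 members are named, and of other genes the 2 nearest by pattern and the nearest under the smaller constant. Planned counts over nuclear-encoded complex I subunits, assembly factors, other mitochondrial genes, mitochondrial RNA factors and cell type markers were not run, because 0 of 47357 genes in the RefSeq table (GRCr8) carry an Ensembl ID. No sequence or coordinate is printed for the same reason.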

Additional observations from a re-analysis of the deposited data

How the results depend on the processing

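Every one of the 7 transcripts stayed lower in RIP and past the threshold under all 20 alternatives that test for any difference (DESeq2, limma-voom, other scalings and filters, thinning, the replicate block, and leaving out each library or same-numbered pair). Log2 fold changes ranged from -6.29 to -5.98 for Mt-nd1, -5.68 to -5.34 for Mt-nd3, -4.59 to -4.31 for Mt-nd6, -4.63 to -4.24 for Mt-nd2, -4.36 to -3.93 for Mt-nd5, -2.33 to -1.67 for Mt-nd4l and -2.18 to -1.61 for Mt-nd4. Without the filter on low counts the adjusted p-values fell to 1.02e-111 or less, which is not read as precision. With glmTreat against 8-fold, Mt-nd4l (-1.92) and Mt-nd4 (-1.86) no longer passed, and 26 genes were depleted and 0 enriched. Against 2-fold, 1150 were depleted and 634 enriched. Both ask for a larger change. The replicate block gave -6.15 for Mt-nd1 and changed no call of the 7. Over all tested genes, same-numbered RIP and Input libraries deviated from their groups with correlations of 0.0532, 0.112 and 0.057. Each library correlated most with the one of its own number, so a pairing is possible. No label states that same-numbered libraries share a lysate, and the main fit therefore did not treat them as paired.

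Among values within the 7, those near 0 changed sign when a library was left out. The share of Mt-nd2 in the member total differed between RIP and Input by -1.4 to 0.99 percentage points, and its log2 ratio to the other 6 by -0.083 to 0.058. For Mt-nd6 these ranges were -0.66 to 0.27 and -0.11 to 0.042, and its log2 ratio to the heavy-strand members ranged from -0.11 to 0.042. The other 5 transcripts kept their direction. With 3 libraries a group no exact test could pass 0.05.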
